A study of Saccharomyces cerevisiae with 9 samples.

Results

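The 10 genes described here encode the enzymes of lower glycolysis and of alcoholic fermentation in the budding yeast Saccharomyces cerevisiae. TDH1 (YJL052W), TDH2 (YJR009C) and TDH3 (YGR192C) encode glyceraldehyde-3-phosphate dehydrogenase, PGK1 (YCR012W) phosphoglycerate kinase and GPM1 (YKL152C) phosphoglycerate mutase. ENO1 (YGR254W) and ENO2 (YHR174W) encode enolase and CDC19 (YAL038W) pyruvate kinase. PDC1 (YLR044C) encodes pyruvate decarboxylase and ADH1 (YOL086C) the alcohol dehydrogenase that forms ethanol. They were taken by name from the 7036 genes of the count tables. The rule used no measured value, but the choice was made with earlier results of these data known. Each gene has 1 promoter window and 1 gene body window of 500 bp, so the 10 genes account for 20 of 14072 windows.

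Lower glycolysis oxidises triose phosphate to pyruvate and yields ATP. In budding yeast on glucose most of the pyruvate is then decarboxylated and reduced to ethanol, which restores the NAD+ that glyceraldehyde-3-phosphate dehydrogenase consumes. The genes of these enzymes are known to be among the most strongly transcribed of the organism during growth on glucose, under activators that include Rap1, Gcr1 and Gcr2. Rvb1 and Rvb2 are related AAA+ ATPases that are subunits of several chromatin remodelling complexes, and Pgk1 is the glycolytic kinase that PGK1 encodes.

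The measurements are chromatin immunoprecipitation sequencing counts from cells of the W303 strain in which 1 of 3 proteins carried a tandem affinity purification (TAP) tag. There were 2 Rvb1 pulldowns, 2 Rvb2 pulldowns, 2 Pgk1 pulldowns and 3 inputs of chromatin before pulldown, 1 from each tagged strain, numbered 1 for the Rvb1 strain, 2 for the Rvb2 strain and 3 for the Pgk1 strain. Pulldowns were made with rabbit IgG, which binds the tag. Every library came from log-phase cells that had been moved to medium without glucose for 10 min, so no starved culture is set against an unstarved one. Nothing in the labels tells whether both pulldowns of a strain stem from different cultures. The p-values therefore measure only a spread between libraries that may be technical.

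Total counts ran from 782398 to 2533445 in the pulldowns and from 4342277 to 4701031 in the inputs, over either kind of window. Pgk1 replicate 1 was the shallowest library at promoters, with 806134 counts, and Pgk1 replicate 2 the deepest pulldown, with 2516799. No count exceeded 1151, and the 10 genes stood at 13.4% to 65.2% of the largest count in the pulldowns and at 49.7% to 73.2% in the inputs, so a difference from input may be understated by counts that approach a ceiling. TDH2 and TDH3, and likewise ENO1 and ENO2, are closely similar copies. The sources used here do not state the treatment of multi-mapping reads, so the division of reads within these pairs is uncertain.

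The gene bodies of all 10 genes stood above their own input in each of the 6 pulldowns, those of Pgk1 included. Values are CPM, counts scaled to a common library size with TMM normalisation, and all windows have the same length, so levels can be compared between genes. The median ratio of pulldown to own input over the 10 gene bodies was 2.56 and 2.0 in the Rvb1 pulldowns, 2.43 and 1.79 in the Rvb2 pulldowns, and 3.48 and 1.27 in the Pgk1 pulldowns. The median log2 ratio over all gene body windows lay between -0.03 and 0.01 in these libraries. Of the 10 gene bodies, 10 and 9 were among the highest 5% of windows in the Rvb1 pulldowns, 9 and 7 in the Rvb2 pulldowns, and 10 and 9 in the Pgk1 pulldowns.

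ENO1, TDH3 and ADH1 had the 3 highest gene body ratios of the 10 genes in each of the 6 pulldowns. ENO1 had 485 and 398 CPM in the Rvb1 pulldowns, 492 and 317 CPM in the Rvb2 pulldowns, 790 and 219 CPM in the Pgk1 pulldowns, and 155, 153 and 160 CPM in the inputs. TDH3, which encodes the major isoenzyme of its dehydrogenase, had 497 and 415 CPM for Rvb1, 533 and 344 CPM for Rvb2, 731 and 224 CPM for Pgk1, and 164, 161 and 166 CPM in the inputs. For both genes every pulldown library lay above every input library, and the 2 Pgk1 libraries enclosed all 4 Rvb libraries.

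ADH1 had 504 and 378 CPM in the Rvb1 pulldowns, 457 and 323 CPM in the Rvb2 pulldowns, 726 and 221 CPM in the Pgk1 pulldowns, and 166, 165 and 169 CPM in the inputs. PGK1, the gene of the protein pulled down in the control libraries, had 420 and 316 CPM in the Rvb1 pulldowns, 405 and 307 CPM in the Rvb2 pulldowns, 542 and 194 CPM in the Pgk1 pulldowns, and 161, 159 and 157 CPM in the inputs. Its ratio over own input ranked between the 4th and the 7th of the 10 genes, in the Pgk1 pulldowns as in the others. By ratio over own input PDC1 was among the 3 lowest gene bodies in every pulldown. It had 404 and 277 CPM for Rvb1, 298 and 199 CPM for Rvb2, 351 and 185 CPM for Pgk1, and 166, 164 and 153 CPM in the inputs. The other 5 gene bodies, of TDH1, TDH2, GPM1, ENO2 and CDC19, lay between 212 and 646 CPM in the pulldowns other than Pgk1 replicate 2, where they lay between 164 and 198 CPM, against 149 to 159 CPM in the inputs.

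**Figure D1:**
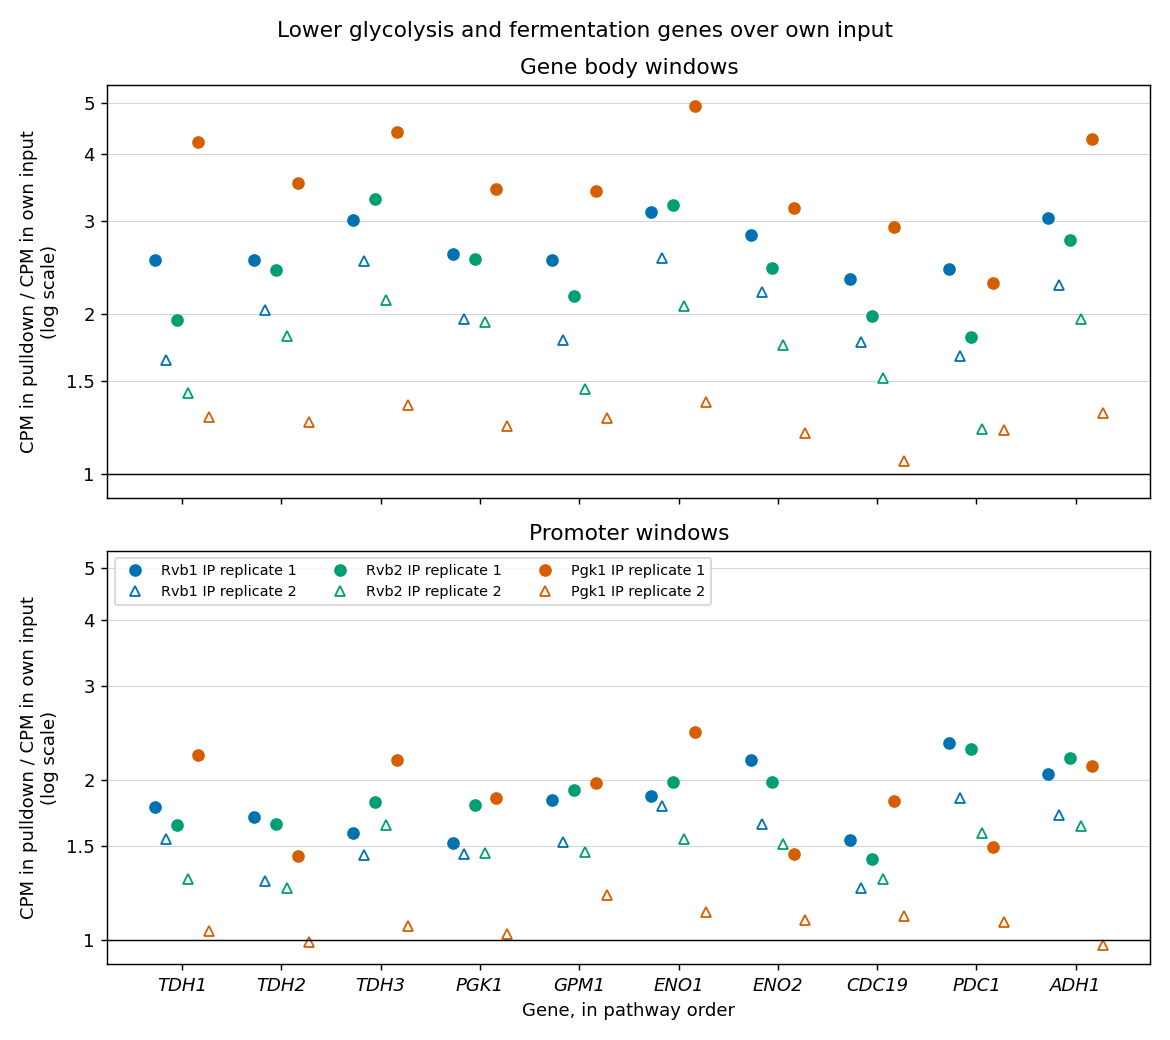
Ratio of normalised CPM in each pulldown to that in the input of the same strain, on a log axis, for gene body windows (upper panel) and promoter windows (lower panel); each point is 1 library, filled circles being replicate 1 and open triangles replicate 2, and the line at 1 marks equality with input. All 10 genes lie above the line in all 6 libraries at gene bodies, with Pgk1 replicate 1 at 4.92 and Pgk1 replicate 2 at 1.36 for ENO1.

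At promoters the median ratios were lower and the order of the genes was another. Single promoters above their own gene body were those of PDC1 in both Rvb2 pulldowns and in Rvb1 replicate 2, GPM1 in Rvb2 replicate 2 and CDC19 in Pgk1 replicate 2. Over the 10 promoters the median ratio to own input was 1.81 and 1.54 in the Rvb1 pulldowns, 1.87 and 1.49 in the Rvb2 pulldowns, and 1.91 and 1.07 in the Pgk1 pulldowns. Among the highest 5% of promoter windows were 4 and 4 of the 10 in the Rvb1 pulldowns, 7 and 5 in the Rvb2 pulldowns, and 7 and 1 in the Pgk1 pulldowns. PDC1 had the highest promoter ratio of the 10 genes in both Rvb1 pulldowns, at 2.35 and 1.85, with 2.28 and 1.59 in the Rvb2 pulldowns and 1.50 and 1.08 in the Pgk1 pulldowns. CDC19 had 1.55 and 1.25 in the Rvb1 pulldowns, 1.42 and 1.30 in the Rvb2 pulldowns and 1.83 and 1.11 in the Pgk1 pulldowns. In Pgk1 replicate 2 the promoters of TDH2 and ADH1 were at 0.99 and 0.98 of their input, and the other 8 promoters between 1.03 and 1.21.

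Set against the inputs, all 10 genes were higher in the Rvb1 pulldowns at both kinds of window. Calls are at a Benjamini-Hochberg adjusted p under 0.05 over all windows, from edgeR's quasi-likelihood test in 1 fit of the 9 libraries. At promoters 10 of 10 were called higher, where 51.8% of all windows were called in either direction and 25.4% higher. Their log2 fold changes ran from 0.49 for CDC19 to 1.13 for PDC1, with a median of 0.79, against 0.00 over all windows. At gene bodies 10 of 10 were called higher, where 48.9% of all windows were called and 23.2% higher. The gene body values ran from 1.01 for CDC19 to 1.50 for ENO1, with a median of 1.21, against -0.01 over all windows.

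PDC1 rose most of the 10 at promoters, by 1.13 (log2, SE 0.24, edgeR adjusted p = 0.00511), with 318 ± 54.3 CPM (SD, n = 2) in the Rvb1 pulldowns and 145 ± 5.89 CPM (SD, n = 3) in the inputs. ADH1 followed at 0.95 (SE 0.29) and ENO2 at 0.93 (SE 0.21). At gene bodies ENO1 rose by 1.50 (SE 0.44, edgeR adjusted p = 0.0133), with 441 ± 61.4 CPM (SD, n = 2) against 156 ± 3.70 CPM (SD, n = 3), and TDH3 by 1.48 (SE 0.43). These calls rested on few libraries. Without Rvb1 replicate 1 the calls were lost over all windows, not only at the 10 genes. The medians of the 10 were then 0.67 at promoters and 1.02 at gene bodies. Without input 1, 2 or 3, most of the 10 lost their call at each window. With the inputs of the Rvb strains averaged into 1 library, 3 promoters and 2 gene bodies of the 10 were called. With each pulldown set against its own input 0 were called, and 3 promoters and 0 gene bodies had an unadjusted p under 0.05 (edgeR). The calls over all windows with averaged and with own inputs are given at the end. In these fits the medians lay between 0.75 and 0.81 at promoters and between 1.19 and 1.22 at gene bodies.

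In the Rvb2 pulldowns the 10 genes had like values, and none was called against the inputs, as no window of the tables was (0%, edgeR). The median log2 fold change was 0.73 at promoters and 1.06 at gene bodies, against -0.01 and -0.02 over all windows. At an unadjusted p under 0.05 stood 9 of 10 promoters, where 38% of all promoter windows did, and 8 of 10 gene bodies, where 30.4% did. Both Rvb2 libraries lay above the 3 inputs at 10 of 10 promoters, where 34.8% of all promoters had this. At gene bodies they did so at 10 of 10, where 33.2% of all gene bodies had this. PDC1 had the highest promoter value, 0.95 (SE 0.24, edgeR adjusted p = 0.0571), and TDH3 the highest gene body value, 1.42 (SE 0.43, edgeR adjusted p = 0.0978). DESeq2 called 8 promoters and 6 gene bodies, with its calls over all windows given at the end. Some fits that left out 1 library also called genes of the 10, and the ranges over all windows are given there too. Without 1 Pgk1 or 1 Rvb1 library the medians were 0.73 to 0.74 at promoters and 1.05 to 1.06 at gene bodies. They were 0.57 and 0.82 without Rvb2 replicate 1, and 0.86 and 1.26 without Rvb2 replicate 2.

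The direct comparison of Rvb1 with Rvb2 called none of the 10 genes at either window (0% of all windows, edgeR and, for the 10 genes, DESeq2), and none reached an unadjusted p under 0.05, where 5.91% of all promoters and 7.36% of all gene bodies did. At gene bodies all 10 values were above 0, from 0.05 for PGK1 to 0.46 for PDC1 (SE 0.34). At promoters they ran from -0.10 for TDH3 to 0.24 for TDH1. No gene had both Rvb1 libraries above both Rvb2 libraries, as 11.4% of all promoters and 11.5% of all gene bodies had.

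The 2 Pgk1 pulldowns differed from each other at these genes. In replicate 1 the gene bodies of the 10 genes stood at 351 to 790 CPM, above every Rvb library for TDH1, TDH2, TDH3, PGK1, GPM1, ENO1, ENO2, CDC19 and ADH1, and for PDC1 above all but 1 Rvb1 library. In replicate 2 they stood at 164 to 224 CPM, below every Rvb library, with the inputs at 149 to 169 CPM. The median CPM of the 10 genes was 4.22 times that of all gene body windows in Pgk1 replicate 1 and 1.47 times in Pgk1 replicate 2, with 2.08 to 3.15 times in the 4 Rvb pulldowns and 1.16 to 1.18 times in the inputs. The shallower Pgk1 library had the higher ratios, and the part of depth in this difference was not tested.

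With both replicates together, none of the 10 was called between Pgk1 and input (0% of all windows at either kind, edgeR). The median was 0.55 at promoters and 1.22 at gene bodies, against -0.02 and -0.01 over all windows. ENO1 had the highest value at both, 0.81 (SE 0.28) at promoters and 1.68 (SE 0.44) at gene bodies, with 504 ± 404 CPM (SD, n = 2) in the Pgk1 pulldowns and 156 ± 3.70 CPM (SD, n = 3) in the inputs. At an unadjusted p under 0.05 stood 5 of 10 promoters, where 9.62% of all windows did, and 10 of 10 gene bodies, where 8.54% did. Both Pgk1 libraries lay above the 3 inputs at 5 of 10 promoters, where 19.3% of all windows had this, and at 10 of 10 gene bodies, where 21.7% had. DESeq2 called 3 promoters and 8 gene bodies, with its calls over all windows given at the end. Pgk1 replicate 1 alone against the inputs gave medians of 0.92 at promoters and 1.80 at gene bodies. Pgk1 replicate 2 alone gave medians of 0.08 and 0.33.

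Over Pgk1, 1 of the 10 promoters was called higher with Rvb1, that of PDC1, where 24.3% of all promoter windows were called and 12.3% higher. Of the 10, 8 had a log2 fold change above 0. The 10 log2 fold changes ran from -0.04 for TDH3 to 0.84 for PDC1, with a median of 0.17, against -0.05 over all windows, and 2 reached an unadjusted p under 0.05, where 42.7% of all windows did. With Rvb2 over Pgk1 none was called (0% of all windows, edgeR and, for the 10 genes, DESeq2), and PDC1 alone reached an unadjusted p under 0.05, where 17.4% of all windows did. The Rvb2 values ran from -0.08 for TDH1 to 0.66 for PDC1, with a median of 0.15, against -0.03 over all windows. At gene bodies none of the 10 was called with Rvb1 over Pgk1, where 13.8% of all windows were, nor with Rvb2 (0%), and DESeq2 called none. None reached an unadjusted p under 0.05 in either, where 36.8% of all windows did with Rvb1 and 10.8% with Rvb2. The gene body medians were -0.04 for Rvb1 and -0.18 for Rvb2, against -0.05 and -0.03 over all windows. TDH1, the minor of the dehydrogenase genes in growing cells, had the lowest gene body value in both, -0.39 (SE 0.43) with Rvb1 and -0.72 (SE 0.43) with Rvb2.

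**Figure D2:**
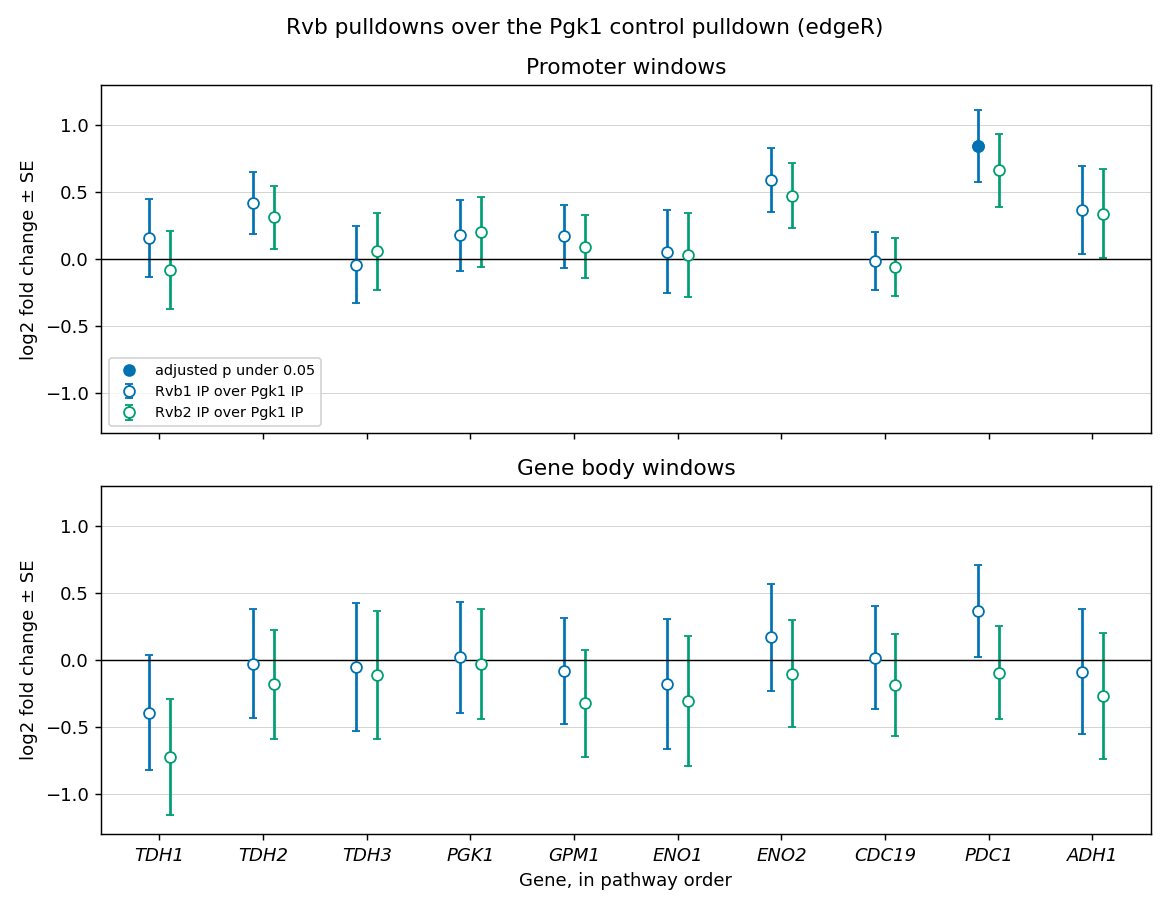
Log2 fold change of the Rvb1 (blue) and Rvb2 (green) pulldowns over the Pgk1 pulldowns from edgeR, with bars of 1 standard error, at promoters (upper panel) and gene bodies (lower panel) of the 10 genes; a filled circle marks an adjusted p under 0.05. PDC1 at the promoter, at 0.84 with Rvb1, is the 1 filled point, and the gene body values lie between -0.72 and 0.37.

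PDC1 and ENO2 were the genes whose promoter libraries did not overlap between Rvb and Pgk1. The PDC1 promoter had 356 and 279 CPM in the Rvb1 pulldowns, 332 and 231 CPM in the Rvb2 pulldowns, 209 and 151 CPM in the Pgk1 pulldowns, and 151, 145 and 139 CPM in the inputs. All 4 Rvb libraries lay above both Pgk1 libraries there. Rvb1 was higher than Pgk1 by 0.84 (SE 0.27, edgeR adjusted p = 0.0373), a value above those of 98.7% of all promoter windows, and Rvb2 stood at 0.66 over Pgk1 (SE 0.27, edgeR adjusted p = 0.248).

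The ENO2 promoter had 304 and 230 CPM in the Rvb1 pulldowns, 280 and 214 CPM in the Rvb2 pulldowns, 206 and 154 CPM in the Pgk1 pulldowns, and 139, 141 and 142 CPM in the inputs. Its value over Pgk1 was 0.59 for Rvb1 (SE 0.24, edgeR adjusted p = 0.0777) and 0.47 for Rvb2 (SE 0.24, edgeR adjusted p = 0.319). Both Rvb1 libraries lay above both Pgk1 libraries at 2 of the 10 promoters, where 28.4% of all windows had this. Both Rvb2 libraries did so at 2 of the 10 promoters, where 21.8% had this. TDH2 (0.42 with Rvb1), ADH1 (0.37), PGK1 (0.18), GPM1 (0.17), TDH1 (0.16), ENO1 (0.05) and CDC19 (-0.01) overlapped between the groups, as did TDH3.

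The PDC1 value lay between 0.61 and 1.09 under all settings run, and its call was lost under several of them. Its edgeR adjusted p was 0.305 without Rvb1 replicate 1, 0.151 without Pgk1 replicate 2, and 0.0762, 0.0774 and 0.0724 without inputs 1, 2 and 3. With the inputs of the Rvb strains averaged it was 0.0774, in a fit of the pulldowns alone 0.174, and with each pulldown set against its own input 0.790.

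Used one at a time as the control, the Pgk1 libraries gave opposite signs for most of the 10 genes. Against Pgk1 replicate 1 alone the median promoter value was -0.20 with Rvb1 and -0.22 with Rvb2. Against Pgk1 replicate 2 alone the medians were 0.69 and 0.64. PDC1, ENO2 and TDH2 were above 0 with either control. With Rvb1, PDC1 stood at 0.61 against replicate 1 and at 1.08 against replicate 2, ENO2 at 0.38 and 0.80, and TDH2 at 0.14 and 0.68. The other 7 promoters changed sign between the controls, for example ENO1 at -0.43 against replicate 1 and 0.69 against replicate 2.

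At gene bodies the shift was larger. The median with Rvb1 was -0.62 against Pgk1 replicate 1 alone and 0.92 against Pgk1 replicate 2 alone. With Rvb2 it was -0.76 and 0.74. ENO1 with Rvb1 stood at -0.84 against replicate 1 and at 1.02 against replicate 2. TDH1 had the lowest value against replicate 1, -1.03, and stood at 0.69 against replicate 2. In each of these fits the lone Pgk1 library is assumed to vary like the other groups.

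**Figure D3:**
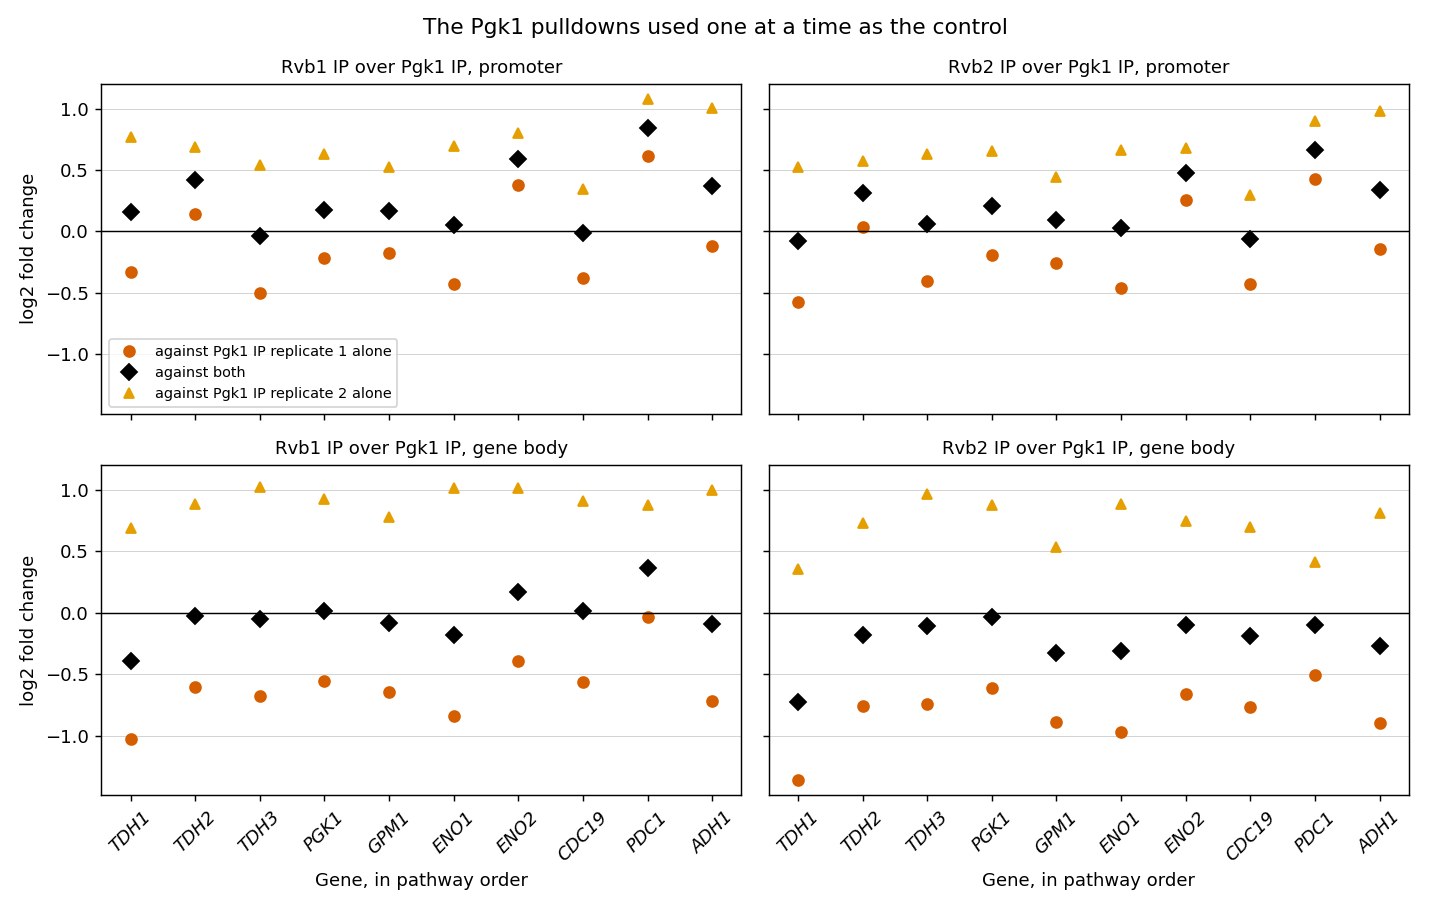
Log2 fold change of Rvb1 (left) and Rvb2 (right) over Pgk1 at promoters (upper row) and gene bodies (lower row), with Pgk1 replicate 1 alone (circles), both Pgk1 libraries (diamonds) or Pgk1 replicate 2 alone (triangles) as the control. The points against replicate 1 lie below 0 and those against replicate 2 above 0 at all 10 gene bodies, and PDC1, ENO2 and TDH2 lie above 0 with either at promoters.

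Reads of the 10 genes lay more in the gene body than in the promoter, most so in Pgk1 replicate 1. The promoter window held 45.6% and 44.0% of their reads over both windows in the Rvb1 pulldowns, 45.2% and 45.1% in the Rvb2 pulldowns, 32.4% and 43.0% in the Pgk1 pulldowns, and 47.5%, 46.6% and 46.5% in the inputs. Over all genes the share was 51.5% to 56.0% in the Rvb pulldowns, 49.8% to 50.7% in the Pgk1 pulldowns and 49.5% to 49.7% in the inputs. PDC1 had the highest share of the 10 in every Rvb library, 53.7% and 52.9% in the Rvb1 pulldowns and 57.1% and 55.1% in the Rvb2 pulldowns, with 38.0% and 44.5% in the Pgk1 pulldowns. TDH3 had the lowest share in 3 of the 4 Rvb libraries, from 36.9% to 42.1%, and stood at 31.7% and 41.3% in the Pgk1 pulldowns.

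Whether the promoter of a gene differed more than its gene body was tested as an interaction, with each library as a block and its size taken over both windows together. Of the 10 genes, 3 were called for Rvb1 over Pgk1, all with the promoter higher, where 28.3% of all genes were called and 24.6% in that direction. They were PDC1 at 0.67 (log2, SE 0.12, edgeR quasi-likelihood adjusted p = 0.0178), TDH1 at 0.65 (SE 0.16, adjusted p = 0.0233) and ADH1 at 0.57 (SE 0.13, adjusted p = 0.0220). The median over the 10 was 0.41, against 0.28 over all genes, and CDC19 had the lowest value, 0.04 (SE 0.18). With the library sizes of each window on their own, 0 of 10 were called and the medians were 0.13 for the 10 genes and -0.01 for all genes. Without input 1 or input 2 none of the 10 was called, and none of all genes was. The calls over all genes were lost without Rvb1 replicate 1 too, where the median of the 10 was 0.31. This median was 0.78 without Pgk1 replicate 2 and 0.08 without Pgk1 replicate 1.

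For Rvb2 over Pgk1 the same test called none of the 10 (0% of all genes, edgeR), with a median of 0.41 against 0.15 over all genes and 5 of 10 at an unadjusted p under 0.05, where 17% of all genes were. PDC1 again had the highest value, 0.83 (SE 0.12, edgeR adjusted p = 0.175), above those of 99.3% of all genes. For Pgk1 over input none was called either (0%), but the 10 values lay between -0.73 for TDH2 and -0.23 for CDC19, with a median of -0.56 against 0.02 over all genes. Here 8 of 10 reached an unadjusted p under 0.05, where 5% of all genes did. The median of the 10 was -0.90 without Pgk1 replicate 2 and -0.27 without Pgk1 replicate 1. For Rvb2 over Pgk1 the median was 0.83 without Pgk1 replicate 2 and 0.07 without Pgk1 replicate 1.

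**Figure D4:**
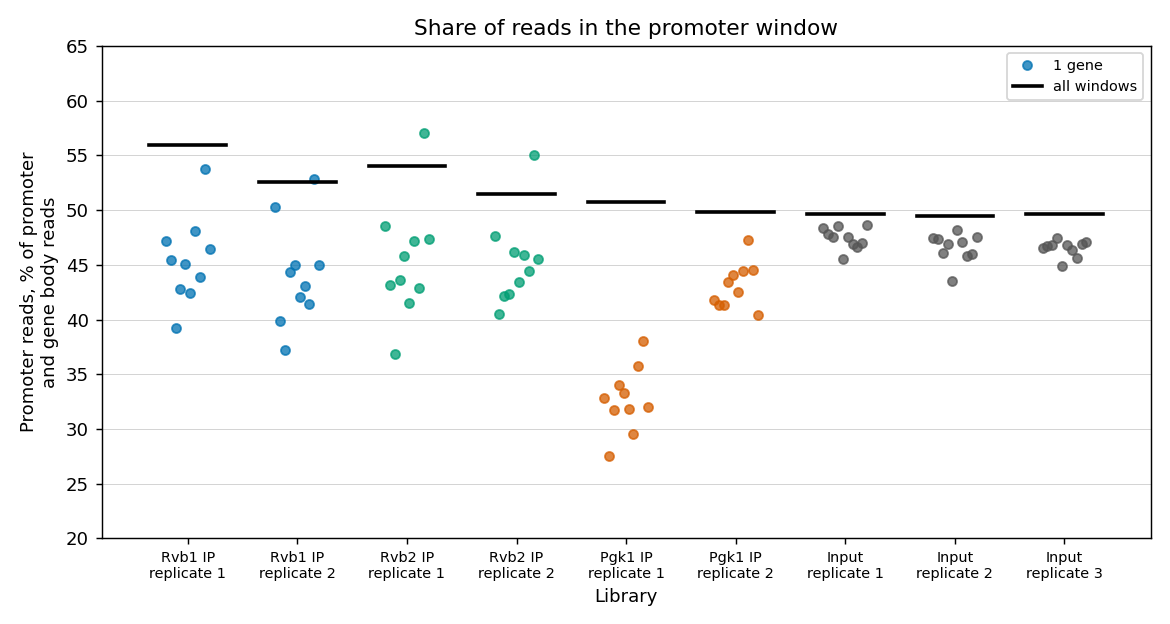
Promoter reads of a gene as a percent of its promoter and gene body reads, for each of the 9 libraries; each point is 1 of the 10 genes and each black bar is the share over all windows. In Pgk1 replicate 1 the 10 genes lie between 27.5% and 38.0%, below all 10 in each of the inputs, where they lie between 43.6% and 48.6%.

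For 6 of the 10 genes the nearest upstream gene is read in the other direction. The distance between the starts was not measured, so it is not known whether the promoter windows share sequence. CDC19 was the gene with the largest contrast to such a neighbour: the promoter of CYC3, which encodes the enzyme that attaches haem to cytochrome c, was higher with Rvb1 than with Pgk1 by 0.76 (edgeR adjusted p = 0.0216), where CDC19 stood at -0.01. The promoter of PUP2, a proteasome subunit gene next to ENO1, was higher with Rvb1 by 0.37 (edgeR adjusted p = 0.0279), where ENO1 stood at 0.05. MET3 beside TDH2 (0.28), ADP1 beside PGK1 (0.43), YHR173C beside ENO2 (0.07) and YJL052C-A beside TDH1 (-0.36) were not called. PDC1 and ADH1 are among the 4 without a divergent neighbour, with TDH3 and GPM1. The gene upstream of PDC1, STU2, had a promoter value of -0.30 (edgeR adjusted p = 0.0967).

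Other genes of the pathway were compared by 4 lists. Upper glycolysis, from hexokinase to triose phosphate isomerase, had 8 genes, 6 of them called higher at promoters for Rvb1 over input, where 25.4% of all windows were, and 3 at gene bodies, where 23.2% were. The medians were 0.50 and 0.60. FBA1, the aldolase gene, had gene body ratios over own input of 2.86 and 2.12 for Rvb1, 2.45 and 1.78 for Rvb2, and 4.21 and 1.28 for Pgk1. HXK1, a hexokinase gene, had 2.31 and 1.81 for Rvb1, 2.18 and 1.59 for Rvb2, and 4.49 and 1.26 for Pgk1. PFK1, a phosphofructokinase subunit gene, lay near 1, with 0.825 and 1.01 for Rvb1, 0.930 and 0.915 for Rvb2, and 1.07 and 0.965 for Pgk1. Over Pgk1 the list had 1 promoter called with Rvb1 (24.3% of all windows), that of PFK2 at 0.47 (SE 0.15, edgeR adjusted p = 0.0349), and no gene body (13.8%).

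The isozymes and relatives of the 10 genes, 13 in all, had median gene body ratios over own input of 0.846 and 0.975 in the Rvb1 pulldowns, 0.878 and 0.995 in the Rvb2 pulldowns, and 1.14 and 1.02 in the Pgk1 pulldowns. None of the 13 was among the highest 5% of windows in the 4 Rvb pulldowns or in Pgk1 replicate 1, and 3 were in Pgk1 replicate 2. PDC5 and PDC6, further pyruvate decarboxylase genes, had 0.69 and 0.84, and 0.66 and 0.92, in the Rvb1 pulldowns, with 0.81 and 1.04, and 1.06 and 1.01, in the Pgk1 pulldowns. ADH2, whose product oxidises ethanol, had 1.20 and 1.30 in the Rvb1 pulldowns and 1.73 and 1.12 in the Pgk1 pulldowns. Of the 13, none was called higher at gene bodies for Rvb1 over input, where 23.2% of all windows were, and 5 were called lower, where 25.7% were, with a median of -0.23. Over Pgk1 with Rvb1, 3 promoters were called higher, where 12.3% of all windows were, and 3 lower, where 12% were, and the 3 lower were ERR1, ERR2 and ERR3, enolase-like genes that are near-identical copies. Of the higher promoters ADH5 had the largest value, 0.41 (SE 0.13, edgeR adjusted p = 0.0360). At gene bodies 5 were called lower, where 7.08% of all windows were, of which ERR1 had the smallest p, at -0.75 (SE 0.17, edgeR adjusted p = 0.0300). Its gene body ratio over own input was 0.78 and 1.05 in the Rvb1 pulldowns and 1.41 and 1.27 in the Pgk1 pulldowns.

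The glycerol and acetate branches, 11 genes, had 9 promoters called higher for Rvb1 over input (25.4% of all windows), with a median of 0.63. At gene bodies 3 were called higher (23.2%) and 1 lower (25.7%), with a median of 0.36. GPP1, a glycerol phosphatase gene, was the 1 promoter of the list called over Pgk1 with Rvb1, at 0.76 (SE 0.23, edgeR adjusted p = 0.0333). Of all promoter windows 24.3% were called in that comparison and 12.3% higher. The 7 regulators, among them RAP1, GCR1 and GCR2, had 2 of 7 promoters called higher (25.4% of all windows) and 1 lower for Rvb1 over input. In either direction 51.8% of all promoter windows were called there. Over Pgk1 with Rvb1 none of the 7 promoters was called, where 24.3% of all windows were. Their gene bodies had 1 call over Pgk1 with Rvb1, ABF1 at -0.50 (SE 0.13, edgeR adjusted p = 0.0314). Of all gene body windows 13.8% were called there and 7.08% lower. With Rvb2 over Pgk1 none of the 39 genes of these 4 lists was called at either window, where none of all windows was.

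**Figure D5:**
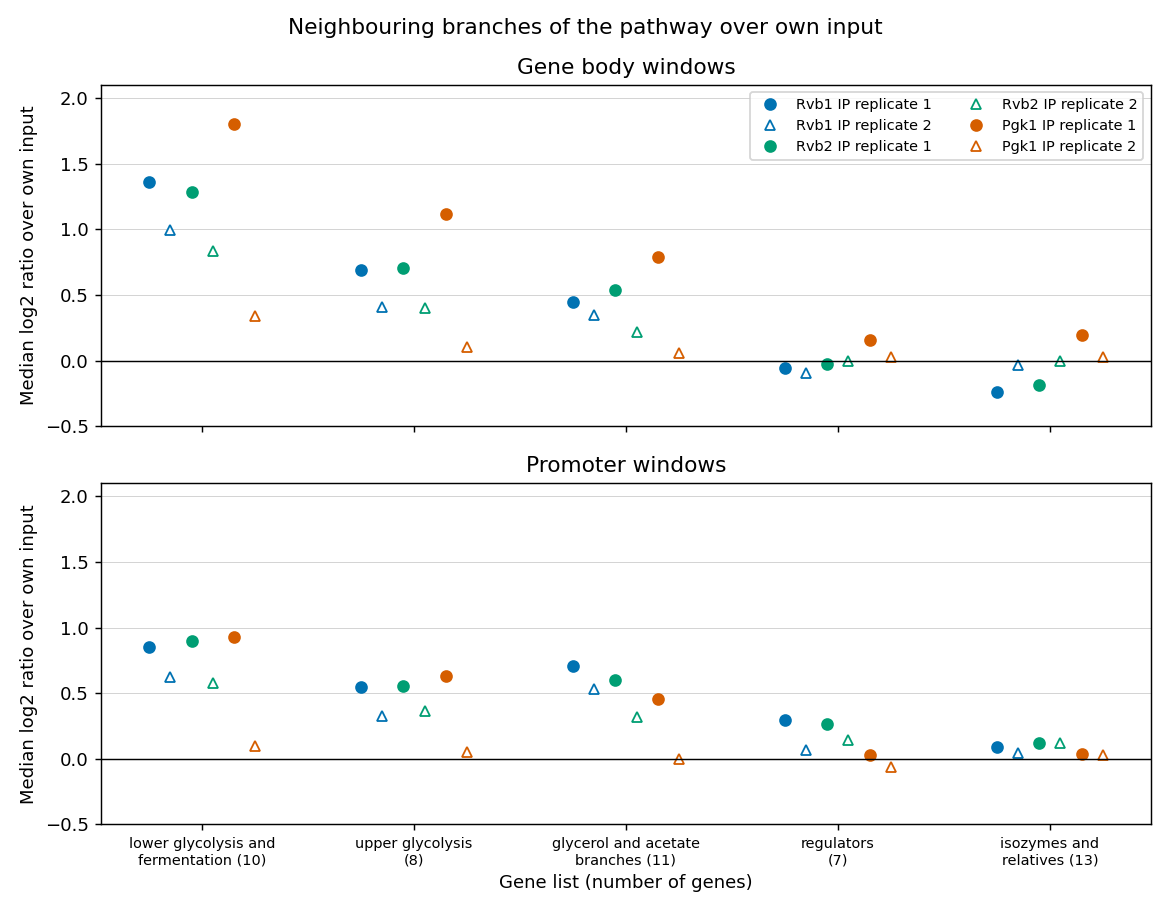
Median log2 ratio of pulldown to own input over the genes of each list, for gene body windows (upper panel) and promoter windows (lower panel); each point is 1 library, with filled circles for replicate 1 and open triangles for replicate 2. At gene bodies the 10 lower glycolysis and fermentation genes lie at 0.34 to 1.80 and the isozymes and relatives at -0.24 to 0.19.

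Among all windows other than those of the 10 genes, the profiles most like theirs were sought by the Euclidean distance between log2 CPM profiles over the 9 libraries, each centred on its own mean. At promoters RGI1, SOD1, the copper-zinc superoxide dismutase gene, and YER088W-B came nearest to the median profile of the 10, at distances of 0.14, 0.14 and 0.16, against a median of 0.32 for the 10 genes themselves and 1.29 for all windows. At gene bodies, a search added after the values were seen, they were YAL037C-B at 0.17, MHF1 at 0.21 and FBA1, the aldolase gene of upper glycolysis, at 0.22, against 0.31 for the 10 genes and 2.03 for all windows. MHF1 lies next to ADH1, and the systematic name of YAL037C-B places it beside CDC19 (YAL038W), so the windows of both can hold reads of a member's own region.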

How the data were processed

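The authors deposited 2 tables of whole-number read counts, 1 for promoter and 1 for gene body windows of 500 bp, with a column for each of the 9 libraries. The submitters' processing notes name Bowtie2, SAMtools and Picard, with FastQC, bedtools and deepTools. Tool roles and versions, the genome build, where windows were placed, and how duplicate and multi-mapping reads were handled are not given in the sources used. Reads were single-end, per the labels' protocols. From the deposited counts, windows were filtered with filterByExpr and normalised with TMM, leaving 7034 promoters and 7035 gene bodies, and tested in edgeR 4.0.16 (R 4.3.3) with the quasi-likelihood test over 4 groups (5 residual degrees of freedom), with Benjamini-Hochberg adjustment over all windows of a table. SE is the log2 fold change divided by the square root of F. Alternatives were DESeq2 1.42.0, its size factors in edgeR, no filter, a correction for the count ceiling, library sizes over both windows, pulldowns alone with and without the replicate number as a block, each pulldown over its own input, and leaving out each library. The code was tested on simulated data. Named genes were all 10 members and, per other list and comparison with Pgk1, at most 3 called genes of smallest p; other named genes illustrate a list or lie next to a member, and were chosen with their values known. The members and lists were chosen with earlier results of these data known. Gene neighbours came from the RefSeq table, in which 5956 of 7036 identifiers matched. A ratio over own input divides the normalised CPM of a pulldown by that of the input of its strain.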

Additional observations from a re-analysis of the deposited data

How the results depend on the processing

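Limits first: the groups hold 2 or 3 libraries, Pgk1 replicate 1 has fewer counts than any other library, and counts approach a ceiling in the inputs. The chi-square of inputs 1 and 2 per degree of freedom was 0.607 at promoters and 0.558 at gene bodies, under Poisson noise. With the count ceiling, 0.459 and 0.451 would be expected, and both values lie above these. Input 3 was less like them, at 2.30 with input 1 and 2.34 with input 2 at promoters, and 2.38 and 2.39 at gene bodies. The main test takes all 3 inputs as 1 group. The 2 pulldowns of a group stood at 6.17 (Rvb1), 4.34 (Rvb2) and 9.20 (Pgk1) at promoters, and at 5.94, 4.12 and 10.6 at gene bodies. Averaging inputs 1 and 2 was added after the data were seen. The cause of a change was not tested unless fewer libraries were fitted. Among the 10 genes' single values, settings other than leaving out a library kept 948 on their side of the threshold, made 31 stronger and 43 weaker, and changed the sign of 28 uncalled ones; leaving out 1 library kept 1067, with 107 stronger, 82 weaker, 90 uncalled sign changes and 4 reversals (Rvb1 over Pgk1, gene body: TDH2 ran over -0.60 to 0.89, TDH3 over -0.68 to 1.02, ENO1 over -0.84 to 1.02 and ADH1 over -0.72 to 1.0, with the lowest value without Pgk1 replicate 2 and the highest without Pgk1 replicate 1). With 1 library size for both windows, calls among the 10 were 2 (Rvb1 over Pgk1, promoter) and 5 (Rvb2 over input, promoter), with 523 windows in all for the second; the split of higher and lower was 1318 and 584 windows (866 and 842 in the main test) for Rvb1 over Pgk1 promoters, 285 and 511 (471 and 498) for its gene bodies, and 790 and 3460 (1634 and 1805) for Rvb1 over input gene bodies, and the median of all windows moved to -0.30 in that last comparison, -0.23 for Rvb2 over input, -0.12 for Pgk1 over input and -0.21 for Rvb1 over Pgk1, all at gene bodies. With counts corrected for the ceiling, Rvb1 over Pgk1 gene bodies split 465 and 278, and Rvb2 over input had 1 gene body window. With pulldowns alone, Rvb1 over Pgk1 had 0 of the 10 and 438 of all promoters (1708 in the main test) and 128 gene bodies (969), and Rvb2 over Pgk1 23 promoters and 29 gene bodies. Over own inputs, Rvb1 over Pgk1 had 0 of the 10 and 0 of all promoters and 1 gene body, Rvb2 over Pgk1 1 gene body, Rvb1 over input 0 of the 10 at either window and 55 promoters (3642) and 5 gene bodies (3439), and Pgk1 over input 1 promoter and 3 gene bodies. With inputs averaged, Rvb1 over Pgk1 had 0 of the 10 and 734 of all promoters and 35 gene bodies, and Rvb1 over input 3 promoters and 2 gene bodies of the 10, with 1987 and 1558 in all. DESeq2 called 147 promoters and 4 gene bodies for Rvb2 over Pgk1, 8 of the 10 and 1499 promoters and 6 of the 10 and 873 gene bodies for Rvb2 over input, 3 of the 10 and 316 promoters and 8 of the 10 and 205 gene bodies for Pgk1 over input, and 1 promoter for Rvb1 over Rvb2. With separate library sizes the interaction of Rvb1 over Pgk1 called 0 of the 10 and 1270 of all genes (1994), 596 higher and 674 lower against 1728 and 266. Leaving out 1 library in turn, calls among the 10 ran over 0 to 7 at either window for Rvb1 over Pgk1, 0 to 0 at either window for Rvb2 over Pgk1 and Rvb1 over Rvb2, 0 to 10 at either window for Rvb1 over input, 0 to 10 promoters and 0 to 9 gene bodies for Rvb2 over input, 0 to 7 promoters and 0 to 10 gene bodies for Pgk1 over input, and, for the interaction, 0 to 8 for Rvb1 over Pgk1, 0 to 6 for Rvb2 over Pgk1 and 0 to 10 for Pgk1 over input. Over all windows they ran, promoters then gene bodies, over 0 to 3157 and 0 to 2959 for Rvb1 over Pgk1, 0 to 108 and 0 to 30 for Rvb2 over Pgk1, 0 to 4260 and 0 to 4051 for Rvb1 over input, 0 to 2132 and 0 to 1082 for Rvb2 over input, 0 to 867 and 0 to 616 for Pgk1 over input, and 0 to 194 and 0 to 245 for Rvb1 over Rvb2, and for the interaction over 0 to 3643, 0 to 32 and 0 to 144. The highest count among the 10 and the highest over all windows did not always come from the same fit. The labels do not pair pulldowns of different strains, and only 2 numbers are shared; deviations of same-numbered libraries correlated at 0.727, 0.226 and 0.348 at promoters and at 0.698, 0.386 and 0.486 at gene bodies (Rvb1 with Rvb2, Rvb1 with Pgk1, Rvb2 with Pgk1). In a fit of the pulldowns alone with the replicate number as a block, Rvb1 over Pgk1 called 1 of the 10 at promoters, PDC1 at 0.83 (edgeR adjusted p = 0.0350), among 1517 promoters, and 0 of the 10 at gene bodies, among 1475; Rvb2 over Pgk1 called 37 promoters and 77 gene bodies, and 0 of the 10.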
